A study of Mus musculus with 27 samples.

Results

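The genes described here are 10 genes of oxygen sensing and of the response to low oxygen, Hif1a, Epas1, Hif3a, Egln1, Egln3, Vhl, Bnip3, Ankrd37, Car9 and Ndrg1. They were chosen by symbol from a count table of 27304 genes, and each symbol had 1 row. RNA was measured by bulk sequencing in hearts of male ApoE-/- mice on a C57BL/6J background, 7 days after myocardial infarction (MI). All mice, the controls included, lacked Apoe and were given a western type diet for 4 weeks before the groups parted. The chronic kidney disease (CKD) mice then ate that diet with 0.3% adenine for 10 days and with 0.15% adenine for 11 days, 4 of them before MI and 7 after it, while the control mice stayed on the western type diet. Tissue of the infarct came from 7 CKD and 6 control mice, and remote myocardium, away from the infarct, came from 8 CKD and 6 control mice. The 27 libraries came from 14 mice, of which 13 gave both pieces. The age of the mice, the way MI was induced and the way each piece was cut are not given in the sources used here.

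Cells sense oxygen through hydroxylation of the hypoxia-inducible factors (HIF). When oxygen is present, prolyl hydroxylases of the Egln family (also called PHD) hydroxylate the HIF alpha subunits, and the von Hippel-Lindau protein (Vhl) then marks these for destruction. When oxygen is scarce the alpha subunits persist, pair with Arnt and bind hypoxia response elements of genes for glycolysis, angiogenesis, pH control and removal of mitochondria. Egln3, Bnip3, Ankrd37, Car9 and Ndrg1 are widely used as readouts of that response. Hif1a and Epas1 are controlled largely at the level of protein, which was not measured here.

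Library totals ran from 14255456 to 42566498 counts, and levels are given below as CPM, the share of a library's counts expressed per 1e6 counts, scaled with TMM factors over all 27 libraries. Apoe still gave 9.86 to 34 CPM. The tissue pieces were not uniform in makeup. All 12 cardiomyocyte markers were detected in every library, and their summed level was 29825 to 115110 CPM in CKD infarcts and 4594 to 31669 CPM in control infarcts, against 89525 to 117080 CPM in CKD and 47693 to 113020 CPM in control remote pieces. The cardiomyocyte score, the mean log2 CPM of these markers, averaged 11.44 ± 0.71 (SD, n = 7) in CKD infarcts and 9.72 ± 1.28 (n = 6) in control infarcts, with a difference of 1.71 (exact two-sided permutation p = 0.00233, adjusted over 2 tests 0.00466). In remote myocardium it averaged 12.42 ± 0.12 (n = 8) in CKD and 12.12 ± 0.46 (n = 6) in control mice, with a difference of 0.30 (exact two-sided permutation p = 0.0406, adjusted 0.0406). The control remote score was 11.24 in mouse 9180 and 12.14 to 12.53 in the other control mice. CKD remote scores were 12.20 to 12.53, so the remote difference rested largely on mouse 9180. Infarct scores were 12.15 and 12.53 in CKD mice 9172 and 9179 and 10.53 to 11.53 in the other CKD mice. In control infarcts they were 7.47 to 10.66. Neither test was repeated without these libraries.

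Of the single libraries, 4 need naming. The library labelled infarct from CKD mouse 9179 gave a cardiomyocyte score of 12.53 and 951 CPM of 8 summed fibroblast markers, below every remote library, so its makeup goes against its label. Its mean log2 CPM of 4 atrial muscle markers was 7.49, against 1.39 to 3.60 in all other infarcts. Remote pieces ran from 0.44 to 7.92 on these atrial markers. Infarct tissue of CKD mouse 9172 reached a cardiomyocyte score of 12.15, also in the range of remote pieces. Unlike that of mouse 9179, it held 6677 CPM of fibroblast markers, above the 1075 to 1963 CPM of CKD remote pieces. Its macrophage and monocyte markers summed to 1583 CPM, against 443 to 871 CPM in CKD remote pieces. The remote library of control mouse 9180 had the lowest remote score, 11.24, and 13394 CPM of fibroblast markers, where the next highest control remote piece, of mouse 9183, had 4514 CPM. For mouse 9179 the labels of the remote piece conflict, with CKD in the title and control as the treatment. It was kept as CKD, and results of members that rest on these libraries are also given without them where a call changed.

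Hypoxia response elements share a short core. It is shown in 1 window each for 5 members, chosen because members with the core went in different directions between infarct and remote tissue. RefSeq promoter sequences (GRCm38.p6) were at hand for 8 of the 10 members, not for Epas1 and Ndrg1. The 250 bases before the start were searched on both strands for ACGTG and GCGTG, whose matches can overlap. Of these 8, 7 held at least 1 match and Vhl held none, while 38.6% of 32851 mouse promoters of the same length held one. Hif3a (2 matches) and Ankrd37 (4 matches) are not shown, nor are further windows of Hif1a, Egln1 and Bnip3. The windows are given 5′ to 3′ on the strand of the gene, with matches on either strand in capitals (CACGT and CACGC are matches on the other strand). A match is only a description of the letters.
Bnip3 (chr7:138909589-138909635, minus strand): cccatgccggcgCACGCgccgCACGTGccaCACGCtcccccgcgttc
Egln3 (chr12:54204087-54204115, minus strand): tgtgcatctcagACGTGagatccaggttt
Egln1 (chr8:124949364-124949392, minus strand): gcccggcccgccGCGTGcgcgcggccccc
Car9 (chr4:43506996-43507024, plus strand): ctatttccgatgCACGTacagcccgtcca
Hif1a (chr12:73907720-73907749, plus strand): cacacagacaagCACGTGagcggggcagct

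The first question was how the infarct differs from remote myocardium of hearts with the same diet. In the infarct, Hif1a and Vhl were higher and Epas1 and Egln1 were lower in both diet groups. Egln3, Bnip3, Hif3a and Ankrd37 fell in control infarcts and Car9 rose in CKD infarcts, each passing the test given next in that diet group only. Of the 10 members, 5 passed the test in CKD hearts (edgeR quasi-likelihood test, Benjamini-Hochberg adjusted p under 0.05), 3 higher and 2 lower, where 45% of 14770 genes tested passed, 24.7% higher and 20.2% lower. In control hearts 8 passed, 2 higher and 6 lower, where 63.9% of all genes passed, 30.7% higher and 33.2% lower. Car9 was higher in the infarct of 6 of 6 control hearts too, without passing. The difference between the diets passed for no member in edgeR. The members' median log2 fold change was -0.19 in CKD and -0.79 in control hearts, and that of all genes was -0.01 in each. All 8 macrophage and monocyte markers also rose in the infarct, with a median log2 fold change of 2.55 in CKD and 2.21 in control hearts. They summed to 530 to 7141 CPM in CKD infarcts, against 443 to 871 CPM in CKD remote pieces, and to 2007 to 4819 CPM in control infarcts, against 415 to 1637 CPM in control remote pieces, with none at 0. Of 5 neutrophil markers 1 rose in CKD and 5 rose in control infarcts, with medians of 0.30 and 2.31. They summed to 16.6 to 37.4 CPM in CKD infarcts, against 8.85 to 29.4 CPM in CKD remote pieces, and to 20.8 to 76.3 CPM in control infarcts, against 4.36 to 12.2 CPM in control remote pieces, where at most 1 of the 5 was at 0 in a library. Other cell types changed too. All 8 fibroblast markers rose in both diet groups, with medians of 3.006 in CKD and 2.435 in control hearts. Of 12 cardiomyocyte markers, 4 fell in CKD and 12 in control hearts, with medians of -0.89 and -2.24. The part of any of these cells in the rise of Hif1a and Vhl was not tested.

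Among the alpha subunits, Hif1a, the broadly expressed one, rose in the infarct. In CKD hearts its lowest, median and highest levels were 34.1, 75.0 and 88.2 CPM in the infarct, against 31.3, 38.1 and 51.0 CPM in remote tissue. The infarct libraries of mice 9172 and 9179, at 48.2 and 34.1 CPM, were the only CKD infarcts inside the remote range. In control hearts the levels were 63.7, 82.8 and 142 CPM in the infarct, against 38.4, 42.3 and 71.0 CPM in remote tissue, and the overlap came from the remote library of mouse 9180. The log2 fold change was 0.78 ± 0.18 (SE, edgeR adjusted p = 0.00186) in CKD and 0.96 ± 0.21 (adjusted p = 0.000305) in control hearts. Within single hearts, Hif1a was higher in the infarct in 6 of 7 CKD and 6 of 6 control hearts, the exception being mouse 9179.

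Epas1, which encodes HIF-2 alpha and is prominent in endothelium, went the other way. Its lowest, median and highest levels were 180, 241 and 463 CPM in CKD infarcts, against 417, 503 and 593 CPM in CKD remote pieces. In control hearts they were 146, 190 and 249 CPM in the infarct, against 255, 475 and 567 CPM in remote pieces. These control groups did not overlap, and 17.1% of all genes tested were likewise lower with no overlap. The log2 fold change was -0.79 ± 0.18 (adjusted p = 0.00148) in CKD and -1.24 ± 0.20 (adjusted p = 2.23e-05) in control hearts, and Epas1 was lower in the infarct of all 13 paired hearts. The 8 endothelial markers summed to 792 to 1258 CPM in CKD infarcts and 1267 to 1913 CPM in CKD remote pieces, and to 702 to 1083 CPM in control infarcts and 1377 to 1722 CPM in control remote pieces. Their part and that of the cardiomyocyte score in the fall of Epas1 were not tested. In bulk tissue, fewer cells of a type and less RNA per cell cannot be told apart.

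Hif3a, an alpha subunit whose short forms restrain HIF activity, was scarce, with 18 to 167 counts per library. In CKD hearts it had 1.07, 2.27 and 6.12 CPM (lowest, median and highest) in the infarct, against 2.88, 3.88 and 6.07 CPM in remote tissue. In control hearts it had 0.531, 1.47 and 1.99 CPM in the infarct, against 1.81, 2.56 and 6.37 CPM in remote tissue. It fell in control infarcts (log2 fold change -1.27 ± 0.39, adjusted p = 0.00578), in 6 of 6 hearts, although 3 of the 6 remote pieces lay in the infarct range. In CKD hearts the value was -0.59 ± 0.34 (adjusted p = 0.151). Without the infarct library of mouse 9179 it was -0.84 (adjusted p = 0.0297), without those of mice 9172 and 9179 -0.95 (adjusted p = 0.0223), and with mouse as a block -0.76 (adjusted p = 0.0415).

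**Figure D1:**
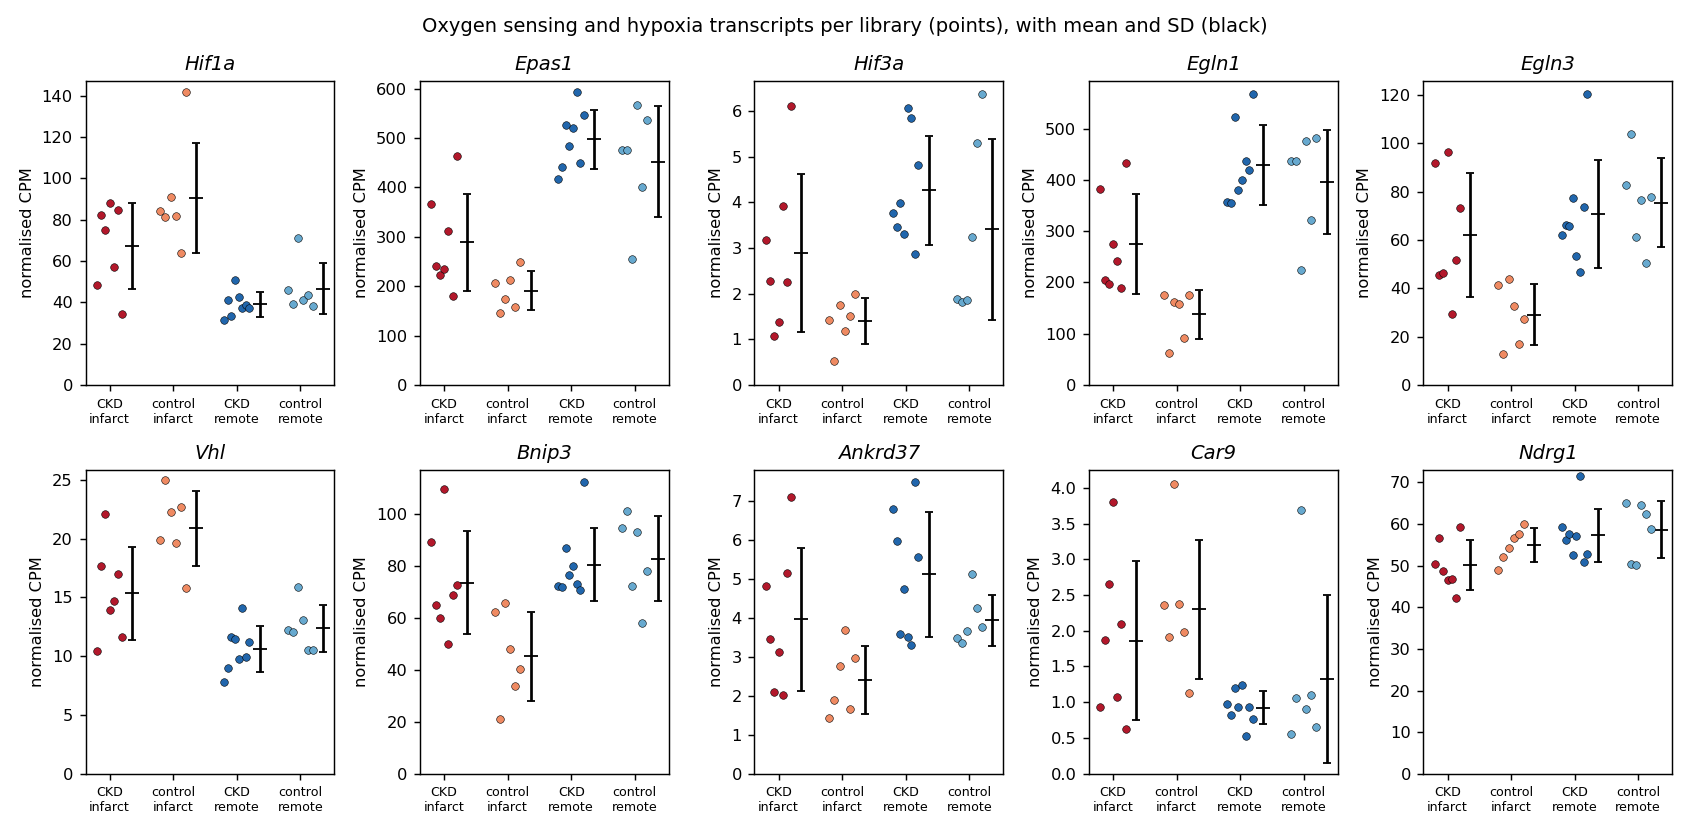
Normalised CPM of each member in every library, by group (points), with the mean and SD in black; the axes start at 0 and differ between genes. Hif1a and Vhl stand higher in infarct than in remote libraries, whereas Epas1 and Egln1 stand lower, and in control hearts the Egln1 values of the infarct, 62.8 to 176 CPM, lie below all remote values, 225 to 481 CPM. The same separation held for 17.1% of all genes tested.

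Of the oxygen sensors, Egln1, the main hydroxylase that sets the HIF level, fell in the infarct of both diet groups. Its lowest, median and highest levels were 190, 242 and 434 CPM in CKD infarcts, against 354, 409 and 567.6 CPM in CKD remote pieces, and the infarcts of mice 9172 and 9179 lay in the remote range. In control hearts they were 62.8, 161 and 176 CPM in the infarct, against 225, 437 and 481 CPM in remote pieces. Egln1 was thus lower there with no overlap, as were 17.1% of all genes tested. The log2 fold change was -0.64 ± 0.22 (adjusted p = 0.0208) in CKD and -1.52 ± 0.25 (adjusted p = 2.38e-05) in control hearts. The CKD call was lost without the infarct library of mouse 9174, 9175 or 9178, at -0.58, -0.58 and -0.57 (adjusted p = 0.0503, 0.0523 and 0.0518).

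Egln3, a hydroxylase that is itself induced by HIF, had 29.2, 51.6 and 96.6 CPM (lowest, median and highest) in CKD infarcts, against 46.8, 66.1 and 120 CPM in CKD remote pieces. These ranges overlapped widely, and the log2 fold change of -0.19 ± 0.26 did not pass (adjusted p = 0.563). In control hearts Egln3 had 13.01, 30.05 and 43.7 CPM in the infarct, against 50.7, 77.2 and 104 CPM in remote pieces. The control groups did not overlap, as for 17.1% of all genes tested, which were likewise lower. The log2 fold change of Egln3 was -1.37 ± 0.29 (adjusted p = 0.000281). Egln3 was lower in the infarct in 5 of 7 CKD and in 6 of 6 control hearts. The CKD exceptions were mice 9172 and 9176, whose infarcts held 92.0 and 96.6 CPM.

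Vhl, the substrate receptor of the ligase that removes hydroxylated HIF, rose in the infarct in 13 of 13 paired hearts. It had 10.4, 14.7 and 22.1 CPM (lowest, median and highest) in CKD infarcts, against 7.78, 10.6 and 14.1 CPM in CKD remote pieces. In control hearts it had 15.8, 21.1 and 25.01 CPM in the infarct, against 10.5, 12.1 and 15.9 CPM in remote pieces, so that only the highest remote value, in mouse 9180, reached the lowest infarct value. The log2 fold change was 0.53 ± 0.14 (adjusted p = 0.00485) in CKD and 0.75 ± 0.16 (adjusted p = 0.000245) in control hearts.

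**Figure D2:**
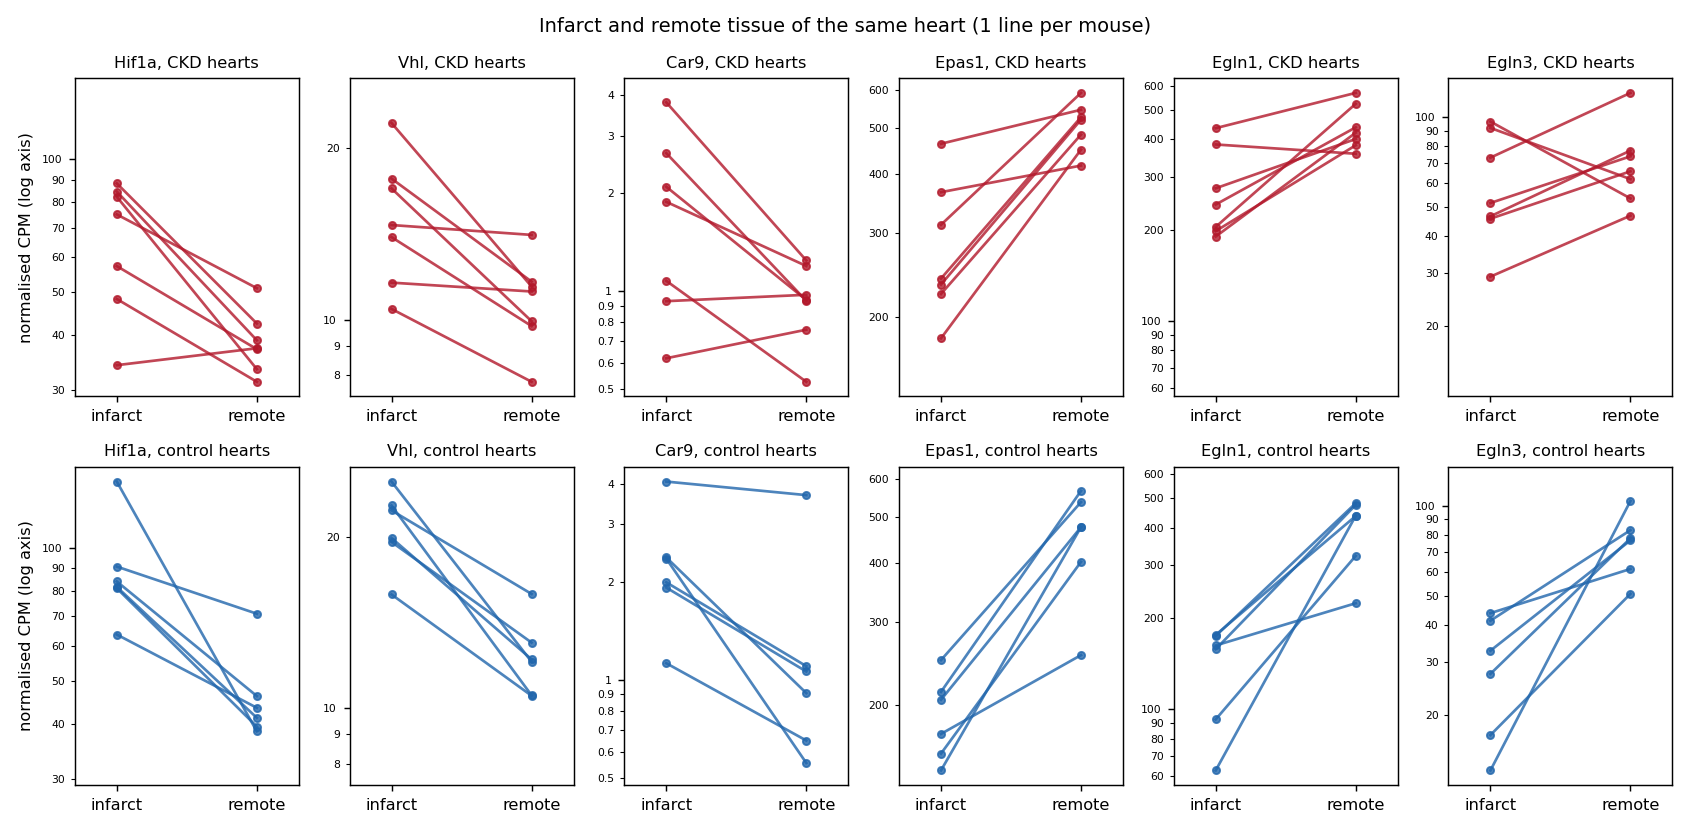
Normalised CPM (log axis) of 6 members in the infarct (left) and remote piece (right) of the same heart, 1 line per mouse, for 7 CKD hearts (top) and 6 control hearts (bottom). Hif1a and Vhl were higher in the infarct in 6 and 7 of 7 CKD hearts and in 6 of 6 control hearts each, while Epas1 was lower in all 13.

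The effector genes of the response did not move as one. Bnip3, a mitochondrial protein of mitophagy and cell death, had 49.9, 68.7 and 110 CPM (lowest, median and highest) in CKD infarcts, against 70.8, 74.8 and 113 CPM in CKD remote pieces (log2 fold change -0.13 ± 0.19, adjusted p = 0.593). In control hearts it had 20.998, 44.2 and 65.8 CPM in the infarct, against 58.2, 85.6 and 101 CPM in remote pieces. Only the remote library of mouse 9183 lay in the infarct range there, and Bnip3 fell in 6 of 6 control hearts (log2 fold change -0.88 ± 0.21, adjusted p = 0.00101). Ankrd37, a small ankyrin repeat protein gene used as a HIF readout, had 2.02, 3.46 and 7.09 CPM in CKD infarcts, against 3.29, 5.16 and 7.50 CPM in CKD remote pieces, and its value of -0.38 ± 0.25 did not pass (adjusted p = 0.217). With the infarcts of CKD mice 9172 and 9179 left out, Ankrd37 was at -0.65 and passed (adjusted p = 0.0306). In control hearts Ankrd37 had 1.42, 2.33 and 3.68 CPM in the infarct, against 3.35, 3.71 and 5.13 CPM in remote pieces. It fell there (log2 fold change -0.71 ± 0.28, adjusted p = 0.0315), but the call was lost without the remote library of mouse 9182 or 9183 or the infarct library of mouse 9170, 9171 or 9183, at -0.69 to -0.60 (adjusted p = 0.0502 to 0.0747).

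Car9, a membrane carbonic anhydrase that acts in pH control and is among the most HIF-dependent genes, was low in every group, with 7 to 130 counts per library. In CKD hearts it had 0.621, 1.88 and 3.80 CPM (lowest, median and highest) in the infarct, against 0.526, 0.935 and 1.24 CPM in remote tissue. Its log2 fold change was 1.04 ± 0.38 (adjusted p = 0.0303), and it was higher in the infarct in 5 of 7 hearts, mice 9172 and 9179 being the exceptions. The call was lost without the remote library of mouse 9177 (0.94, adjusted p = 0.0572) or the infarct library of mouse 9175, 9176 or 9178 (0.94, 0.76 and 1.01, adjusted p = 0.0692, 0.108 and 0.051). In control hearts Car9 had 1.12, 2.17 and 4.06 CPM in the infarct, against 0.554, 0.984 and 3.69 CPM in remote tissue, and the remote value of 3.69 CPM was that of mouse 9180. It was higher in the infarct in 6 of 6 hearts, yet the log2 fold change of 0.75 ± 0.41 did not pass (adjusted p = 0.112). Without the remote library of mouse 9180 it was 1.41 (adjusted p = 0.00183), and with mouse as a block 0.96 (adjusted p = 0.00664).

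Ndrg1, a stress-responsive gene that low oxygen induces in many cells, was the steadiest member. Its group means were 50.1 ± 5.99 CPM (SD, n = 7) in CKD infarcts, 54.9 ± 4.03 (n = 6) in control infarcts, 57.3 ± 6.45 (n = 8) in CKD remote and 58.6 ± 6.85 CPM (n = 6) in control remote pieces. The infarct value was -0.19 ± 0.08 (log2, adjusted p = 0.0619) in CKD and -0.09 ± 0.09 (adjusted p = 0.394) in control hearts. In CKD hearts it passed without the infarct library of mouse 9174 (-0.23, adjusted p = 0.0472) or 9179 (-0.21, adjusted p = 0.0336), and without those of both 9172 and 9179 (-0.22, adjusted p = 0.0376).

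Other genes of the pathway, in 5 lists of 56 genes, also split. For the counts below, the share of all genes that passed was 45% in CKD hearts, 24.7% higher and 20.2% lower. In control hearts it was 63.9%, 30.7% higher and 33.2% lower. Of 9 other oxygen sensors and partners of Vhl, 1 fell in CKD and 7 fell in control infarcts, none rose, and the median log2 fold change was -0.21 and -0.49. Egln2, the third hydroxylase, fell by 0.29 on the log2 scale in CKD (adjusted p = 0.0319) and by 0.54 in control hearts (adjusted p = 0.000463). In control hearts Usp20, a deubiquitinase that acts on HIF-1 alpha, was at -0.91 (adjusted p = 0.000232), the scaffold Cul2 at -0.67 (adjusted p = 0.000517), and Hif1an, the asparaginyl hydroxylase, at -0.65 (adjusted p = 0.00235). Of 5 other subunits and cofactors, 1 rose in each diet group, the neural Arnt homologue Arnt2 (1.37 in CKD, adjusted p = 0.00302, and 1.20 in control hearts, adjusted p = 0.00411). Arnt2 was scarce, which limits its precision. It had 3 to 55 counts per library in CKD infarcts, against 4 to 15 in CKD remote pieces. In control hearts it had 25 to 113 counts in the infarct, against 8 to 48 in remote pieces.

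Of 14 metabolic HIF targets, 4 rose and 2 fell in CKD infarcts and 5 rose and 8 fell in control infarcts. As given above, 45% of all genes passed in CKD and 63.9% in control hearts, which also applies to the next 2 lists. Slc16a3, the lactate exporter MCT4, rose in both, by 2.17 ± 0.39 (SE) in CKD hearts (adjusted p = 0.000184) and by 2.25 ± 0.43 in control hearts (adjusted p = 0.000101). Slc2a1, the glucose transporter GLUT1, rose by 0.68 in CKD hearts (adjusted p = 0.00305) and by 0.77 in control hearts (adjusted p = 0.00108). Hk2, the hexokinase of striated muscle, was at -0.46 in CKD (adjusted p = 0.0986) and -1.51 in control hearts, where it passed (adjusted p = 3.96e-05). Of the 14 signalling and matrix targets tested (of 15, Epo being too low), 8 rose and 3 fell in CKD and 9 rose and 4 fell in control infarcts. The collagen enzymes Lox (4.70 in CKD and 3.10 in control hearts) and Plod2 (1.51 in CKD and 1.98 in control hearts) and the heme oxygenase Hmox1 (2.38 in CKD and 2.65 in control hearts) rose, with adjusted p = 1.63e-05 to 0.00264. The level of Lox was not higher in CKD infarcts, with a median of 183 CPM against 395 CPM in control infarcts. In remote pieces its medians were 4.63 CPM in CKD and 7.32 CPM in control hearts, but the highest control remote value was 218 CPM. Vegfa, the angiogenic growth factor, fell by 0.90 in CKD (adjusted p = 0.0146) and by 1.78 in control hearts (adjusted p = 6.73e-05). Of 13 survival and chromatin targets, 2 rose in CKD, and 1 rose and 5 fell in control infarcts. Fibroblast markers summed to 951 to 33193 CPM in CKD infarcts and 26827 to 53994 CPM in control infarcts, against 1075 to 1963 CPM in CKD and 1224 to 13394 CPM in control remote pieces, and their part in these changes was not tested.

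**Figure D3:**
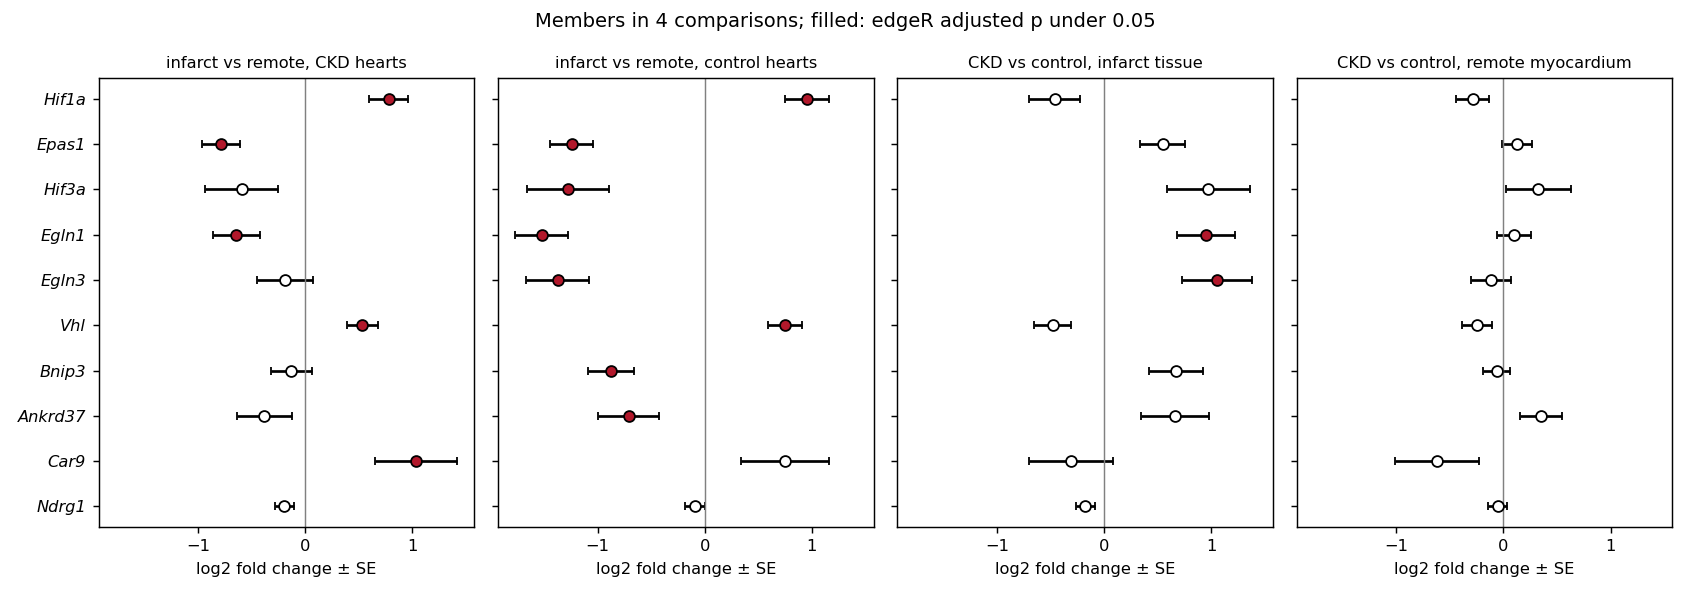
Log2 fold change with its SE for the 10 members in 4 comparisons, with filled points where the edgeR adjusted p was under 0.05. Filled points number 5 and 8 for infarct against remote tissue in CKD and control hearts, 2 for CKD against control in the infarct and 0 in remote myocardium.

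The second question was what CKD changes in the infarct. The hydroxylase genes Egln1 and Egln3 were higher in CKD than in control infarcts. These were the 2 members of 10 that passed, both higher, where 20.3% of 14358 genes tested passed, 13.1% higher and 7.14% lower. The members' median log2 fold change was 0.61, and that of all genes was -0.02. Egln1 had 190, 242 and 434 CPM (lowest, median and highest) in CKD infarcts, against 62.8, 161 and 176 CPM in control infarcts. The groups did not overlap, and 5.25% of all genes were likewise higher with no overlap, and the log2 fold change was 0.95 ± 0.27 (SE, edgeR adjusted p = 0.0361). Egln3 had 29.2, 51.6 and 96.6 CPM in CKD infarcts, against 13.01, 30.05 and 43.7 CPM in control infarcts, with the infarct of CKD mouse 9177 inside the control range. Its log2 fold change was 1.06 ± 0.33 (adjusted p = 0.0411; 0.0521 without the filter on low counts).

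Both calls lay close to the threshold, in groups whose cardiomyocyte scores also differed. Every call of this comparison lay there, since the lowest adjusted p over all genes in edgeR was 0.0345. Fits that left out 1 library called 0 to 4651 genes of the whole table. Without the infarct library of control mouse 9171, 9182 or 9183 or of CKD mouse 9172, 9176, 9177 or 9179, neither passed. Egln1 was then at 0.80 to 0.99 (adjusted p = 0.0514 to 0.0858) and Egln3 at 0.90 to 1.18 (adjusted p = 0.0527 to 0.0922), and Egln3 also failed without control mouse 9184 (1.04, adjusted p = 0.064). Without both infarcts of CKD mice 9172 and 9179, Egln1 was at 0.64 (adjusted p = 0.124) and Egln3 at 0.84 (adjusted p = 0.141). In a fit that also held that muscle score, Egln1 was at 0.11 and Egln3 at 0.32 (adjusted p = 0.941 for both), and no gene of the table passed in that fit (614 at an unadjusted p under 0.05 in edgeR). The 8 other members were at -0.40 to 0.14 in it.

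The other members did not pass in the infarct. The alpha subunits Hif1a, Epas1 and Hif3a were at -0.46 ± 0.24 (SE, adjusted p = 0.159), 0.55 ± 0.21 (adjusted p = 0.071) and 0.97 ± 0.39 (adjusted p = 0.0833). Vhl had 10.4 to 22.1 CPM in CKD and 15.8 to 25.01 CPM in control infarcts, with a log2 fold change of -0.48 ± 0.17 (adjusted p = 0.0581). Bnip3 was at 0.67 ± 0.25 (adjusted p = 0.0694) and Ankrd37 at 0.67 ± 0.32 (adjusted p = 0.134). Car9 was at -0.31 ± 0.39 (adjusted p = 0.568) and Ndrg1 at -0.18 ± 0.09 (adjusted p = 0.147). Epas1, Hif3a, Vhl and Bnip3 passed with DESeq2 (0.56, 0.996, -0.47 and 0.68, adjusted p = 0.0371, 0.0426, 0.0305 and 0.0362), whose count over all genes was 4557, against 2908 with edgeR. In a single fit of all 27 libraries the same 4 passed, and Ankrd37 too (0.71, adjusted p = 0.0489). Single libraries decided the call for 3 of them, not for Bnip3, which passed in 0 of 13 fits that left out 1 library. Without CKD mouse 9175, Epas1 (0.60, adjusted p = 0.0477), Hif3a (1.12, adjusted p = 0.0351) and Vhl (-0.59, adjusted p = 0.0212) passed, Epas1 also without CKD mouse 9178 (0.63, adjusted p = 0.0436), and Vhl also without control mouse 9184 (-0.55, adjusted p = 0.0494).

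**Figure D4:**
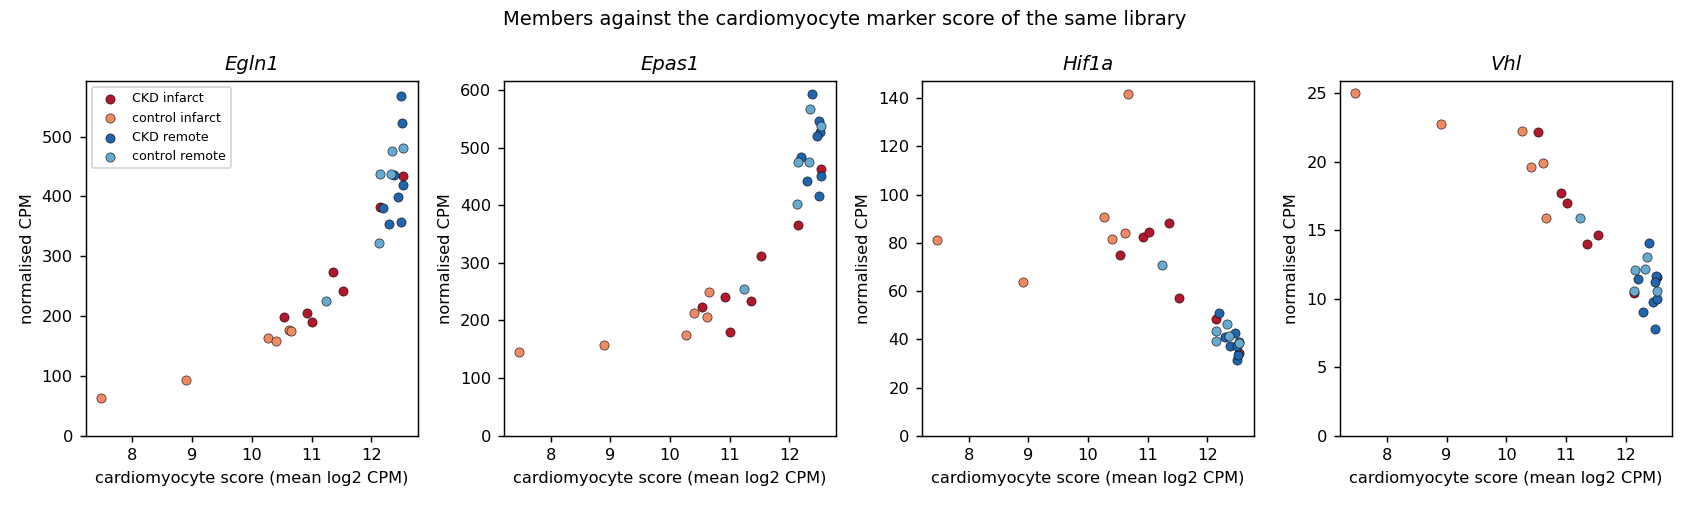
Normalised CPM of 4 members against the cardiomyocyte score (mean log2 CPM of 12 muscle markers) of the same library, coloured by group. Egln1 and Epas1 are low in libraries of low score, with Egln1 at 62.8 CPM in the control infarct of the lowest score, 7.47, while Vhl is high there, at 25.01 CPM.

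Of the other pathway genes in the infarct, metabolic targets were the list with the most calls. Of these 14 genes, 8 were higher and 1 lower in CKD, with a median log2 fold change of 0.56. Over all genes tested, 13.1% were higher and 7.14% lower. Glycogen synthase Gys1 rose by 0.97 ± 0.23 (SE, adjusted p = 0.0345), Hk2 by 1.20 ± 0.32 (adjusted p = 0.0345) and Higd1a, a mitochondrial protein induced by hypoxia, by 1.005 ± 0.28 (adjusted p = 0.0348). Ndufa4l2, a HIF target that lowers respiratory chain activity, fell by 0.47 (adjusted p = 0.0345). Among 9 oxygen sensors and Vhl partners 3 were higher, the elongins Eloc (0.43, adjusted p = 0.0345) and Elob (0.48, adjusted p = 0.0385) and Usp20 (0.80, adjusted p = 0.0371). Of 14 signalling and matrix targets tested, Tfrc, the transferrin receptor, rose by 1.62 (adjusted p = 0.0398) and Plod2 fell by 1.13 (adjusted p = 0.0345). Of 13 survival and chromatin targets 4 rose, among them Ndrg2 (1.18, adjusted p = 0.0345) and Nrn1 (1.84, adjusted p = 0.0464), and of 5 subunits and cofactors none passed. With the muscle score in the fit none of these was called, but neither was any of the 14358 genes tested. Without the infarcts of CKD mice 9172 and 9179, none of these was called either, nor was any of 14515 genes tested in edgeR. Neither fit can therefore single these genes out. The muscle score itself ran from 10.53 to 12.53 in CKD and from 7.47 to 10.66 in control infarcts.

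The third question was what CKD changes in remote myocardium, where no member passed. The share of all 13902 genes that passed was 0.0216%, which is 3 genes, all lower, with 1626 at an unadjusted p under 0.05 in edgeR and 97 called by DESeq2. No member had an unadjusted p under 0.05, and DESeq2 called 0 members. The members' median was -0.06 on the log2 scale and that of all genes -0.005. The largest differences were those of Car9 (-0.62 ± 0.39, adjusted p = 0.55), Ankrd37 (0.35 ± 0.20, adjusted p = 0.507), Hif3a (0.33 ± 0.30, adjusted p = 0.704), Hif1a (-0.29 ± 0.15, adjusted p = 0.469) and Vhl (-0.25 ± 0.14, adjusted p = 0.494). Without the remote library of control mouse 9180, Car9 was at 0.08 (adjusted p = 0.963), Hif1a at -0.10 (adjusted p = 0.87), Vhl at -0.14 (adjusted p = 0.843) and Hif3a at 0.22 (adjusted p = 0.908). The other 5 lay between -0.12 and 0.12, and Epas1 (0.12) and Egln1 (0.10) were at 0.01 and -0.01 without that library. None of the 53 other pathway genes tested passed either, and their list medians were -0.15 to 0.09.

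The difference of the CKD effect between the regions passed for no member in edgeR. The difference, infarct effect minus remote effect, came from 1 fit of all 27 libraries, in which edgeR called 0% of 14770 genes (2787 at an unadjusted p under 0.05; DESeq2 called 600). It was largest for Egln3 (1.19 ± 0.39 SE, adjusted p = 0.165), Egln1 (0.88 ± 0.33, adjusted p = 0.169) and Bnip3 (0.75 ± 0.29, adjusted p = 0.177), the 3 members with an unadjusted p under 0.05. DESeq2 called Egln3 (1.17, adjusted p = 0.0453). For the other 7 members it lay between -0.22 and 0.68.

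Members also varied among libraries of 1 group. The coefficient of variation within a group ran from 7.33% for Ndrg1 in control infarcts to 88.7% for Car9 in control remote pieces, where the library of mouse 9180 stood apart. With group means removed, Egln3 and Bnip3 had the closest profiles of all member pairs (Pearson r = 0.912 over 27 libraries), followed by Epas1 and Egln1 (r = 0.845). These values are descriptions, since libraries of 1 mouse share an animal and all residuals share the makeup of the piece. With the members themselves left out of the search, among 13249 genes averaging 1 CPM or more, the genes most like Egln1 in these residuals were Dynll2 and St3gal3 (r = 0.976 each), and those most like Epas1 were Hadh, of fatty acid oxidation, and Sord, sorbitol dehydrogenase (r = 0.961 and 0.959). Of these genes Ubl4a came closest to Egln3 (r = 0.866) and to Bnip3 (r = 0.89), in each case below the value of Egln3 with Bnip3. Hif1a was most like Timp1, an inhibitor of matrix metalloproteases (r = 0.877), Vhl most like H2-DMa, of antigen presentation (r = 0.864), and Car9 most like the phosphofructokinase Pfkp (r = 0.884). For Hif3a, Ankrd37 and Ndrg1 the closest genes were Mcf2l (r = 0.868), Mrto4 (r = 0.813) and Cdc26 (r = 0.692).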

How the data were processed

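The authors deposited whole-number counts per gene for 27 libraries, the unit taken from the values. The submitters' processing notes name kallisto 0.48.0 and the build GRCm39. How transcript estimates became gene counts is not given in the sources used here, and no coordinates of the table were used. Groups came from the titles. Of 66 pathway genes all were found, 1 of them (Ero1a) under an older symbol, as was the marker Hbb-bs, by Ensembl ID.

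Genes were filtered with filterByExpr, scaled by TMM and tested in edgeR 4.0.16 (R 4.3.3; glmQLFit and glmQLFTest, a quasi-likelihood test). Calls needed a Benjamini-Hochberg adjusted p, taken over all genes, under 0.05. Tests of CKD against control used the libraries of 1 region. Infarct against remote tissue and the difference of effects came from 4 group means over all 27 libraries. The SE is the absolute fold change divided by the root of F. Scores and residuals used log2 CPM with a prior count of 2. The tests were tested on simulated data with 200 changed genes. Of 2-fold changes, 48.6% were recovered for the difference of effects and 72.6% to 94.1% for the other comparisons. Of 1.5-fold changes, 16.4% were recovered for the difference of effects and 20.3% to 46.3% for the other comparisons. Changes of these sizes can thus be missed. Alternatives were DESeq2 1.42.0, its size factors, no low-count filter, all 27 libraries in 1 fit, a muscle covariate (the cardiomyocyte score), mouse as a block, mouse 9179's remote piece set as control, and left-out libraries.

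Infarct and remote libraries of 1 mouse are paired by animal. Their residuals correlated at -0.1 to 0.4 over 13 pairs (median 0.17, against -0.02 between mice). Within groups, none of 79 pairs of libraries looked like copies of 1 library (lowest chi-square per degree of freedom 9.52). Members, gene lists and tests were chosen with earlier results of these data known. All members are described, and from the other pathway lists up to 4 called genes with the smallest p per list and comparison, and the 2 genes most like each member, of which a selection is printed. Values of Slc16a3, Slc2a1, Hk2, Lox, Plod2, Hmox1, Vegfa, Egln2 and Arnt2 are given for both diets, also where that rule does not name them, a choice made after the values were seen.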

Additional observations from a re-analysis of the deposited data

Results flagged for a closer look

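Dixon's ratio at the 95% level was taken over 40 sets of values (10 members in 4 groups). In 6 of them a library stood apart from the rest of its group. The nominal rate by chance is about 1 of 20 sets. The 40 sets share 27 libraries and are not independent, so the 6 cannot be set directly against that rate. Hif1a was at 142 CPM in the infarct library of control mouse 9184, where the next highest was 90.8 CPM. In the remote library of control mouse 9180, Hif1a was at 71.0 CPM (next 46.2 CPM) and Car9 at 3.69 CPM (next 1.10 CPM). In the remote library of mouse 9179, whose diet labels conflict, Egln3 was at 120 CPM (next 77.2 CPM) and Bnip3 at 113 CPM (next 87.1 CPM). Ndrg1 was at 71.6 CPM in the remote library of CKD mouse 9177 (next 59.2 CPM).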

How the results depend on the processing

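For infarct against remote tissue, 8 members in control and 5 in CKD hearts passed, and with mouse as a replicate block 9 and 6, the added ones being Car9 and Hif3a; the block changed no other call. Left-out libraries gave 7 to 9 and 3 to 7 members (8790 to 9856 and 4967 to 8401 genes), and leaving out the infarcts of CKD mice 9172 and 9179 gave 8 members in CKD hearts. For CKD against control in the infarct, 2 members and 2908 genes passed. The numbers were 1 and 1926 without a low-count filter, 6 and 4557 with DESeq2, 7 and 5067 with all 27 libraries fitted together, 0 and 0 with the cardiomyocyte score as a covariate or without mice 9172 and 9179, and 0 to 5 and 0 to 4651 with each library left out. In remote myocardium 0 members passed under every alternative run, and genes called, 3 in the main test, were 1 without a filter, 97 with DESeq2, 1 with all libraries fitted together, 0 with the covariate, 5 without the remote library of mouse 9179, 1 with it read as control, 1 without that of mouse 9180 and 1 to 6 with each library left out. For the difference of effects DESeq2 called 600 genes and 1 member, against 0 in edgeR, and left-out libraries gave 0 to 1 genes.

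Signs turned only for values that had not passed. In remote myocardium Epas1 (-0.057), Egln1 (-0.113) and Car9 (0.318) turned with the covariate, Egln1 (-0.047) with mouse 9179 read as control, and Egln1 (-0.008) and Car9 (0.079) without mouse 9180; with each library left out, Egln1 lay between -0.008 and 0.166 and Car9 between -0.776 and 0.079. In the infarct Hif3a (-0.057) turned with the covariate. For the difference of effects Car9 turned with mouse as a block (-0.087) and without mouse 9180 (-0.368; left-out libraries gave -0.368 to 0.524), and Hif1a (0.036) without mice 9172 and 9179. The cause of a turned sign or a changed call was not tested. No paired analysis was possible for CKD against control because these groups share no mouse. Counts of Hif3a, Ankrd37 and Car9 (7 to 167 per library) limit their precision.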
